A study of Homo sapiens with 2 samples.

Results

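The interleukin 17 (IL17) genes described here are 3 cytokine genes, IL17B, IL17C and IL17D, and the 5 receptor genes IL17RA, IL17RB, IL17RC, IL17RD and IL17RE. These 8 genes carry 10 of the 50599 probes of the array, 3 for IL17RA and 1 for each of the others. The family was chosen by the large rise of IL17B in hawk tea extract (HTE)-treated cells, so the value of IL17B is given as a description, and the other genes were taken because they belong to the same family. Of the 8 genes, 7 were well above background on both arrays, and IL17C was not well above background on either.

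The study treated HepG2, a line of human liver cancer cells that is widely used in place of hepatocytes, with HTE, an ethanol extract of the leaves of a non-Camellia tea plant that was dissolved in dimethyl sulfoxide (DMSO). One group was given HTE for 24 h, at 200 μg/mL in the sample labels and at a higher dose in the text of the study, and the control group was given DMSO at 1 per mille for 24 h. Total RNA of each group was hybridised to 1 one-colour (Cy3) Agilent array. With 1 array per condition there is no replicate, the spread between cultures is not known, and no test between the conditions was run.

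IL17 cytokines are secreted proteins that signal as dimers through pairs of single-pass receptors. IL17RA is the shared receptor chain, and it joins IL17RC for IL17A and IL17F, IL17RB for IL25 (also called IL17E), and IL17RE for IL17C. IL17B binds IL17RB. The receptors hand the signal to the adaptor TRAF3IP2 (ACT1) and on to NF-κB, MAP kinases and C/EBP factors, and in epithelial cells and hepatocytes this pathway is known for inducing chemokines and acute phase genes.

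The probe of IL17B (A_23_P167479, transcript NM_014443) had a processed signal of 246 on the DMSO array and of 4386 on the HTE array. The processed signal is the brightness of a spot after the scanner software has subtracted background, and the software's own error estimates for these spots were 29.2 and 439. IL17B was thus low but measurable in DMSO-treated cells, above the lowest signal that was well above background on that array (66.6), and much higher in HTE-treated cells. After each array was scaled to its 75th percentile, IL17B had a log2 ratio (HTE over DMSO) of 4.32, a 19.9-fold rise, with a software error of 0.22. This was the second largest log2 ratio among the 14636 genes with a symbol that both arrays measured well above background.

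The unprocessed pixels are those of the same spot, so that they describe the chosen value and do not support it. The median pixel of this spot was 287 on the DMSO array over a local background of 26, and 4231 on the HTE array over a local background of 28.5. No outlier was flagged on either spot. The 8 spots touching it had signals from 15.7 to 11695 on the DMSO array and from 21.3 to 8601 on the HTE array, and the 60 measured spots around it had a median log2 ratio of -0.087. Any part of the position on the array in the value of IL17B was not tested. IL17B has 1 probe and 1 spot, so that no second measurement of the gene was made on these arrays.

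**Figure D1:**
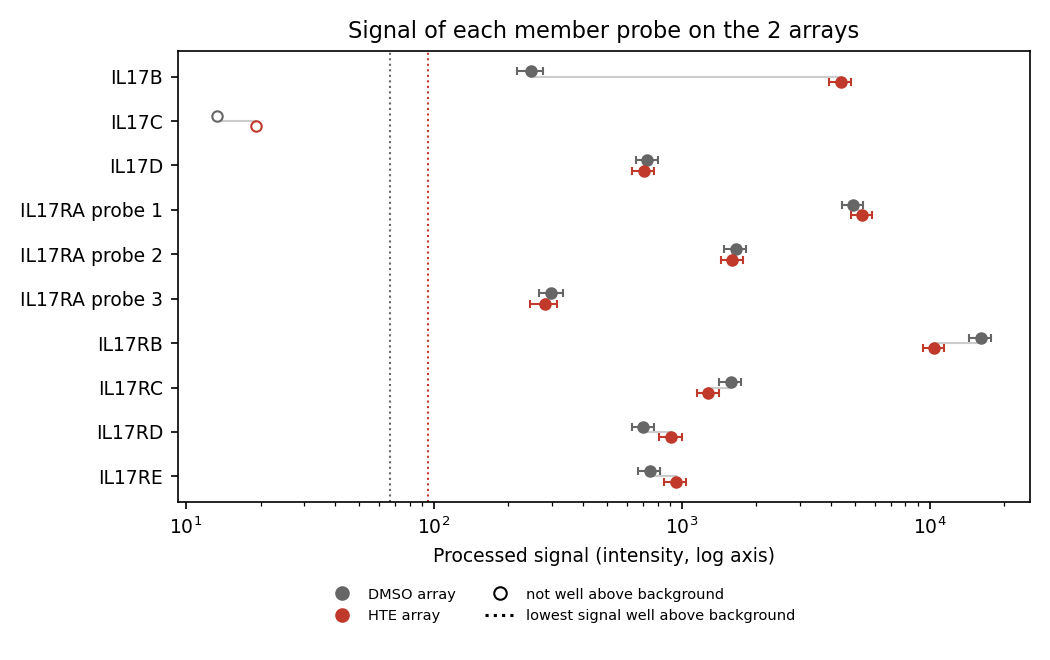
Processed signal (intensity, log axis) of the 10 probes of the IL17 genes, with DMSO in grey and HTE in red. Bars are the error estimates of the scanner software, open circles are spots not well above background (drawn without bars), and dotted lines mark the lowest signal well above background on each array. IL17B moves from 246 to 4386, IL17C lies below both lines, and the 2 points of every other probe lie close together.

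The sequences before the annotated starts of IL17B are shown because it is the only one of these genes past 2-fold, beside 1 window of IL17D, a family member whose signal stayed under 2-fold. They are 250 bases each on the gene's strand, from RefSeq on GRCh38.p14, which gives IL17B 2 starts and does not say here which of them the probed transcript uses. Capitals mark the letters TGANTCA (N is any base), searched here as the AP-1 motif. This pattern is wider than the binding sequence of FOS and JUN dimers, whose middle base is C or G.
IL17B upstream start, chr5:149404203-149404452, minus strand: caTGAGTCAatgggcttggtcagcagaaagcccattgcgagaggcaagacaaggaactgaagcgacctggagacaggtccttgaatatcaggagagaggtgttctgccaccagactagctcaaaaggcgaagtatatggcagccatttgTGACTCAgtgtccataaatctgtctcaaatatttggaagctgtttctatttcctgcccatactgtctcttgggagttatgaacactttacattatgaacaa
IL17B downstream start, chr5:149379293-149379542, minus strand: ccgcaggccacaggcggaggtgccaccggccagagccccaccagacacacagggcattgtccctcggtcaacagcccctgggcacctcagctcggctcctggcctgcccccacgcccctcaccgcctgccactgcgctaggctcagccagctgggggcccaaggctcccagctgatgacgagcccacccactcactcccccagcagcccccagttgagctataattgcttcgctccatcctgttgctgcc
IL17D most downstream start, chr13:20715372-20715621, plus strand: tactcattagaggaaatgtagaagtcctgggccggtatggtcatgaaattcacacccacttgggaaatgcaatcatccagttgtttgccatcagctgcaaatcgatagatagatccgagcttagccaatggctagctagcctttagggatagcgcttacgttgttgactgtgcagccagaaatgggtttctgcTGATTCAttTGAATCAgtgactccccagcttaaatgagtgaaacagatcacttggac

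The window of the upstream IL17B start held 2 AP-1 motifs, which begin 248 and 101 bases before the start, and the window of the downstream start held none. The IL17D window also held 2, beginning 57 and 48 bases before the start. Their middle bases are T and A, where those of IL17B are G and C. At least 1 AP-1 motif was found in 6.57% and at least 2 in 0.402% of all 35116 windows of the same length, and in no other of the 12 windows of the 6 IL17 genes that RefSeq windows were given for (IL17B, IL17D, IL17RB, IL17RC, IL17RD and IL17RE). The core GCGTG of the aryl hydrocarbon receptor, searched on both strands as all motifs were, was in 5 of the 12 windows and in 32.2% of all windows, and among the IL17B windows it was in the downstream one. The NRF2 element TGACNNNGC was in 3 of the 12 windows and in 10.9% of all, including the upstream IL17B window, where it did not overlap an AP-1 motif. The NF-κB motif GGANTTTCC (1.45% of all windows) and the CREB or ATF motif TGACGTCA (1.65% of all) were in none of the 12. These matches describe the letters of the windows only.

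The other cytokine genes of the family did not share the rise. IL17D, a cytokine known from many tissues outside the immune system, had a processed signal of 725 on the DMSO array and 702 on the HTE array, well above background on both. Its log2 ratio was 0.11 with a software error of 0.21, a difference smaller than the error of the spots, and it was -0.048 without scaling. IL17C, a cytokine of epithelial cells, had signals of 13.3 and 19.1, both not well above background. IL17A and IL17F, the cytokines of T helper 17 cells, and IL25 were outside the chosen genes, and none of their probes was well above background on either array. No ratio is given for these 4 genes.

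IL17RB, the receptor of IL17B, had the most negative ratio of the 7 measured genes. Its signal was 16099 on the DMSO array and 10440 on the HTE array. The log2 ratio was -0.46 with a software error of 0.20, a level 1.38-fold lower in HTE-treated cells, which is short of 2-fold. Of all measured genes, 31.2% had a log2 ratio at least as far from 0. The ligand and its receptor thus had ratios of opposite sign on these arrays, and that sign did not change under the alternative settings. IL17RB passed 2-fold (-1.65) only with scaling to the E1A spike-in RNA, a control RNA added to the samples. The 10 probes of this RNA had a median log2 ratio of 1.03 before any scaling between the arrays.

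IL17RA, the shared chain, was measured by 3 probes, and they gave similar ratios. The brightest had signals of 4922 and 5345 on the DMSO and HTE arrays, the next 1650 and 1603, and the dimmest 298 and 280. The log2 ratios were 0.28, 0.12 and 0.073, which differ by less than the software error of the dimmest probe (0.24). IL17RC, the partner chain for IL17A and IL17F, had signals of 1575 and 1281 and a log2 ratio of -0.14 with a software error of 0.21. For IL17RC the difference was smaller than the error of the spots.

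IL17RD, which is also known as SEF, an inhibitor of fibroblast growth factor signalling, had a signal of 701 on the DMSO array and 906 on the HTE array. Its log2 ratio was 0.53 with a software error of 0.21. IL17RE, the receptor of IL17C, had signals of 744 and 947 and a log2 ratio of 0.51 with a software error of 0.21. Both ratios were above the error of the spots but under 2-fold, at 1.45-fold and 1.42-fold, and 26.1% and 27.7% of all genes had ratios at least as far from 0. With scaling to the spike-in RNA, both were negative (-0.66 and -0.68).

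Counted together, 1 of the 7 measured genes (IL17B) was higher by at least 2-fold with HTE, where 5.16% of all 23752 measured genes and unnamed transcripts were, and 0 were at least 2-fold lower, where 3.09% of all were. Since IL17B was chosen for this difference, nothing is read from that share. The median log2 ratio of the 7 genes was 0.28, beside 0 for all genes. Of the 7, 5 had a positive and 2 a negative ratio. The median and the count of signs include the chosen IL17B, so nothing is read from them either. The 6 genes other than IL17B lay between -0.46 and 0.53, which is within the range from the 5th (-0.84) to the 95th percentile (1.02) of all genes.

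**Figure D2:**
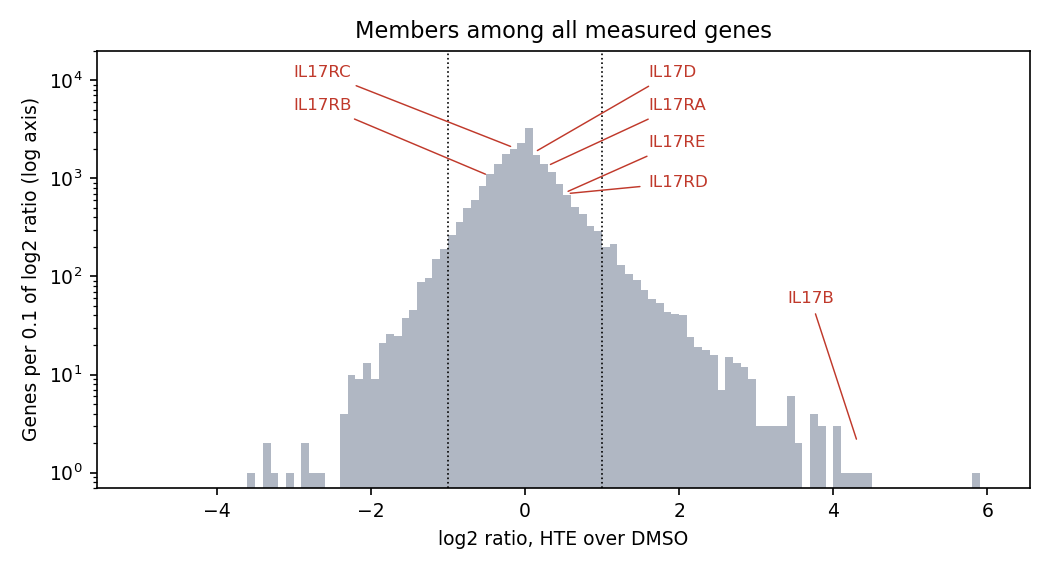
Number of genes (log axis) per 0.1 of log2 ratio of HTE over DMSO for all 23752 measured genes and unnamed transcripts, with the 7 measured IL17 genes marked and dotted lines at 2-fold. IL17B stands at 4.32 in the far right tail, and the other 6 lie between -0.46 and 0.53 in the centre.

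The IL17 genes share little in position. IL17RB, IL17RC, IL17RD and IL17RE lie on chromosome 3, where IL17RE and IL17RC are neighbours, and their ratios differed (0.51 and -0.14). The 3 nearest measured genes on either side of IL17B on chromosome 5 had log2 ratios from -0.38 (CSNK1A1, casein kinase 1 alpha) to 0.59 (ARHGEF37), so that none of its neighbours was past 2-fold. Among 44 neighbours of all 8 genes, 2 were at least 2-fold higher and 0 lower, where 5.16% and 3.09% of all genes were. Both lie beside IL17C on chromosome 16. They are MVD (1.33, and 0.14 with spike-in scaling), an enzyme of cholesterol synthesis, and SNAI3-AS1 (1.13), an antisense RNA whose ratio was 0.41 with another probe and -0.063 with spike-in scaling.

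The genes whose log2 ratio was nearest that of IL17B, over these 2 arrays taken from genes with a symbol that both measured, included CYP1A1 (4.01), PRECSIT (3.58), KRTAP21-2 (3.52) and LIPG (3.04). CYP1A1 is a target of the aryl hydrocarbon receptor, PRECSIT is a long noncoding RNA, KRTAP21-2 encodes a keratin-associated protein, and LIPG encodes endothelial lipase. With 2 arrays this likeness is a single number per gene.

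The genes that carry the IL17 signal inside the cell were mostly little different between the arrays. Of a list of 38 signal transducers, 37 were measured, 2 were higher by at least 2-fold with HTE and 0 were lower, beside 5.16% and 3.09% of all genes, with a median log2 ratio of 0.024. These counts were 0 and 22 with spike-in scaling, where 148 and 15801 of all 23752 genes were past 2-fold. With median scaling, without scaling and before detrending, 1 gene was lower. Of all genes, 917, 1209 and 1043 were lower, in that order. The 2 higher genes were the AP-1 subunits JUND and FOS. JUND had a signal of 263 on the DMSO array and 847 on the HTE array (log2 ratio of 1.85). FOS had 87.0 and 206 (1.40, and 0.85 with normexp background correction). JUN, the partner of FOS in AP-1, had signals of 11906 and 17465 (0.72). The adaptor TRAF3IP2 had signals of 2463 and 3143 (0.51), and the ubiquitin ligase TRAF6 had 2066 and 1874 (0.022). Of the NF-κB genes, NFKB1 had a log2 ratio of -0.41 and RELA of 0.16, and SRSF1, a splicing factor that also binds chemokine mRNAs, had the most negative ratio of the list (-0.97).

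Most of the genes known to be induced by IL17 cytokines and well above background on both arrays were under 2-fold. Of 38 genes, 17 were measured, 1 was at least 2-fold higher and 1 lower, where 5.16% and 3.09% of all genes were. Of the 17, 6 (CXCL1, IL6, S100A7, S100A9, SAA2 and REG3A) passed the filter on dim probes through the DMSO array alone and could only be lower. Their bounds under 2-fold do not show that a gene was under 2-fold. Among the 11 well above background on both arrays, 1 was higher and 0 lower, where 879 and 633 of all 21002 genes were. The median log2 ratio of the 17 was 0, itself a bound taken as 0. It was 0.14 among the 11 and -0.335 with dim probes at their own signal. The count of genes at least 2-fold lower ranged from 0 to 6 under alternatives at the 2-fold cutoff other than spike-in scaling. The 6 came without a filter on dim probes, where 1907 of all 41127 genes were lower. Spike-in scaling gave 0 higher and 11 lower, where 148 and 15801 of all 23752 genes were. CXCL8, a neutrophil chemokine, rose from a signal of 567 on the DMSO array to 1375 on the HTE array (log2 ratio of 1.44, and 0.25 with spike-in scaling). CXCL1, a related chemokine, had a signal of 355 on the DMSO array and was not well above background on the HTE array (104), so that it was at least 3.04-fold lower (-0.94 on the log2 scale with normexp). Its other probe was at least 0.79 lower on the log2 scale by the same bound. CXCL1 resembles CXCL2 and CXCL3 in sequence, and whether its probes also read those genes was not tested. CCL20, another chemokine induced by IL17A, was bright on both arrays, with 30700 and 31949 (0.22), and LCN2 (lipocalin 2) had 1244 and 974 (-0.19). NFKBIZ and ZC3H12A, whose mRNAs are raised early by IL17A, had log2 ratios of 0.21 and -0.26.

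Receptors of other interleukins were mostly under 2-fold as well. Of 36 such genes, 20 were measured, 1 was at least 2-fold higher and 0 lower, where 5.16% and 3.09% of all genes were. Their median log2 ratio was 0.015. IL2RG and IL12RB2 passed the filter on dim probes through the DMSO array alone and could only be lower. Their bounds were taken as 0, which does not show that they were under 2-fold. Among the 18 receptors well above background on both arrays, 1 was higher and 0 lower, where 879 and 633 of all 21002 genes were. IL21R, the receptor of the T cell cytokine interleukin 21, was the only one past 2-fold at its brightest probe, with a signal of 178 on the DMSO array and 1183 on the HTE array (log2 ratio of 2.89, 7.44-fold higher). The most negative ratio was that of IL1RAP, the accessory chain of the IL1 receptor (-0.68). IL6R, the receptor of the main inducer of acute phase genes in hepatocytes, lay just under 2-fold (0.99), and its dimmer probe had a log2 ratio of 1.61. IL15RA, the receptor of interleukin 15, noticed after its values had been seen, had a log2 ratio of -0.19 at its brighter probe (signals of 1263 and 987) and of 1.63 at its dimmer one (222 and 612). With another probe in place of the brightest, 3 of the receptors were at least 2-fold higher, where 1296 of all 23752 genes were. With spike-in scaling, 1 was higher and 11 were lower, where 148 and 15801 of all 23752 genes were. With dim probes at their own signal, 1 receptor was at least 2-fold lower, where 1343 of all 23752 genes were.

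Several genes of other interleukins and related cytokines were past 2-fold. Of 39 genes, 18 were measured, 7 were at least 2-fold higher and 1 lower, where 5.16% and 3.09% of all genes were, and the median log2 ratio was 0.94. The count of 7 includes IL1A and IL27, which passed the filter on dim probes through the HTE array alone and could only be higher. IL6, IL12A, IL20 and IL26 passed it through the DMSO array alone and could only be lower. Their bounds do not show that they were under 2-fold. All 6 are among the 18 and enter the median. Of the 12 that passed on both arrays, 5 were higher and 1 lower, beside 879 and 633 of all 21002 genes. The median log2 ratio of these 12 was 0.99. IL1A, an alarmin, was not well above background on the DMSO array (16.1) and had a signal of 347 on the HTE array, at least 5.83-fold higher. IL37, an anti-inflammatory member of the IL1 family, had 86.5 and 435 (log2 ratio of 2.49). IL27 was also not well above background on the DMSO array (42.8, against 244 on the HTE array) and was at least 4.09-fold higher, and the bounds of IL1A and IL27 have no order. CXCL8, which stands in this list too, IL32 (20288 and 45847, log2 ratio of 1.34) and IL18 (1131 and 2352, 1.22) were bright enough to be measured on both arrays. IL11 (1.06) and the only lower gene IL7 (-1.02) were named after their values had been seen, and both lay at the cutoff. IL11 was 0.98 with median scaling and 0.89 without scaling, and IL7 was -0.99 with normexp and -0.98 with neighbouring spots subtracted. Between 5 and 8 of the genes were at least 2-fold higher under the alternative settings other than a changed cutoff and spike-in scaling. Spike-in scaling gave 2, where 148 of all 23752 genes were higher.

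**Figure D3:**
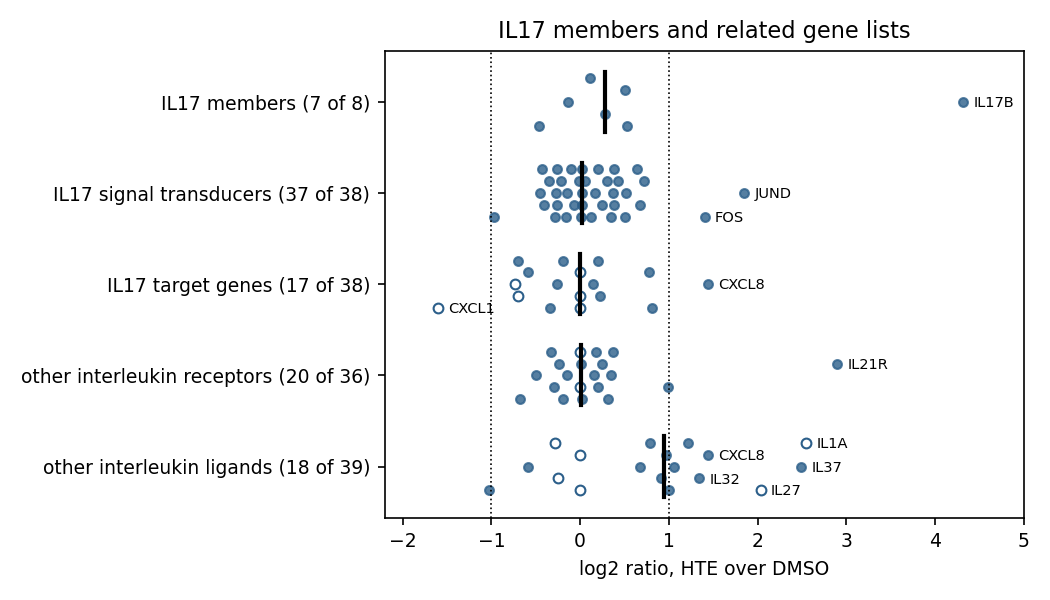
Log2 ratio of HTE over DMSO for each measured gene of the IL17 family and of 4 related lists, with the number measured of the number listed. Filled circles were well above background on both arrays, open circles are bounds from genes well above background on 1 array, short black lines are medians and dotted lines mark 2-fold. IL17B (4.32) is the highest point, IL21R (2.89) is the highest of the other receptors, and the ligand list has its median at 0.94 beside medians between 0 and 0.28 for the others.

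The cells of both arrays carried the markers of hepatocytes, all 9 of which (ALB, APOA1, APOB, AFP, TTR, TF, SERPINA1, FGB and HNF4A) were well above background on both arrays, with log2 ratios from -0.37 to 0.20. Of 6 T cell markers, CD3D, CD4 and CD8A were well above background on both arrays and CD3E, CD3G and CD2 on neither, with a summed signal over the 3 of 5131 on the DMSO array and 6862 on the HTE array. CD3D (1312 and 4247, log2 ratio of 1.86) and CD8A (115 and 300, 1.55) rose with HTE, and CD4 had a log2 ratio of -0.52 (3705 and 2315). Of 5 monocyte or macrophage markers, 3 were measured, with a summed signal of 9137 and 8055. Their log2 ratios were -1.78 for CD14, 0.46 for CD68 and 0.13 for PTPRC. The dimmer probe of PTPRC had a log2 ratio of -0.89 (398 and 192). Of 4 endothelial markers, 2 were measured, with 986 and 307, with log2 ratios of -1.83 for PECAM1 and -0.64 for VWF. Of 4 fibroblast or stellate markers, 3 were measured, with 21293 and 21023 and log2 ratios from -0.64 (COL1A1) to 0.16 (PDGFRB). The part of these marker differences in the ratio of IL17B was not tested.

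The ratios depended on the processing to different degrees. The log2 ratio of IL17B was 3.89 to 4.37 under the alternative settings other than spike-in scaling and 3.13 with it. The receptors IL17RB and IL17RC had negative and IL17RA, IL17RD and IL17RE positive ratios under those settings, and all 5 were negative with spike-in scaling, which lowered the median log2 ratio of all genes by 1.19. IL17D had a positive ratio except without scaling and with spike-in scaling.

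**Figure D4:**
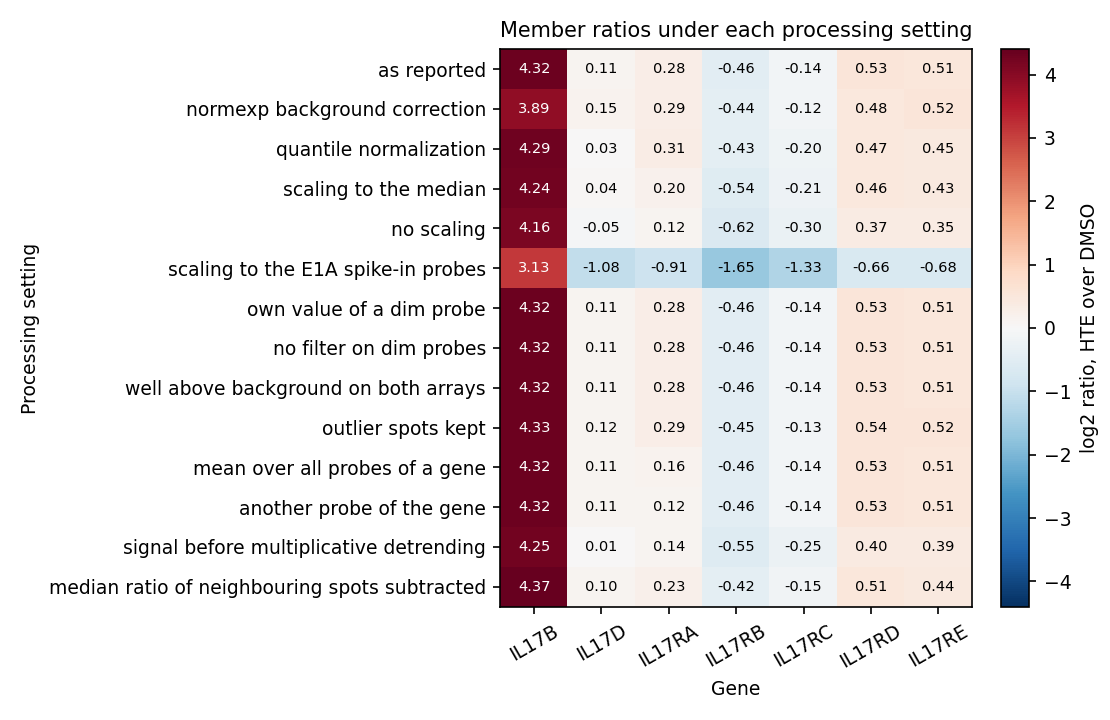
Log2 ratio of HTE over DMSO of each measured IL17 gene (columns) under each processing setting (rows), with red for higher and blue for lower values on the HTE array. IL17B stays between 3.13 and 4.37, and the row of spike-in scaling is lower throughout.

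Both arrays had 62976 spots, of which 58717 are not controls. Of these, 60.6% on the DMSO array and 56.6% on the HTE array stood well above background, and no spot was saturated. Precision is limited by having 1 array per condition. Among 688 probes with at least 5 replicate spots, log2 ratios had a median SD of 0.051, and the 95th percentile of that SD was 0.153. The IL17 genes have 1 spot per probe, so that this error could not be measured on them. Between probes of the same gene, the median SD was larger, at 0.162 over 4137 genes with 2 or more probes.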

How the data were processed

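Total RNA of HepG2 cells treated with DMSO or HTE (1 array each) was labelled with Cy3 and hybridised to Agilent SurePrint G3 human gene expression arrays on 1 slide. The authors deposited the Feature Extraction output (version 11.5.1.1 per the file headers, 10.7 per the labels) as intensity values. These had been background-subtracted and detrended within each array, the lowest values had been set to a small positive number, and they were not scaled between arrays. The deposited flags, coded 0 or 1 for spots well above background, saturated or outlying, are another kind of score from the same software.

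Control and outlier spots were left out, the log2 signal was reduced by the 75th percentile of each array (signals of 3967 for DMSO and 3544 for HTE), and replicate spots were averaged. Probes with a share of 0.5 or more of their spots well above background on either array entered. Where only 1 array met this, the ratio is a bound against the higher of the dim signal and the lowest probe signal well above background there (66.6 for DMSO and 94.6 for HTE). A bound under 1-fold was taken as 0. Probes were named through RefSeq transcripts without version in the gene table of GRCh38.p14 (28174 of 50599 matched), and the brightest probe stood for a gene. The file headers name hg19, so gene coordinates were used for the order of neighbours only. A difference of 1 or more on the log2 scale, the 2-fold cutoff of the study's methods, was counted as past 2-fold. With 1 array per condition there is no test.

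The genes and lists were chosen with earlier results of these data known. Named are all members, IL17A, IL17F and IL25, up to 6 genes past 2-fold of each list (the largest rise or fall otherwise), the genes nearest IL17B in ratio (1 of the 5, and 1 marker gene, are not reported here) and neighbours past 2-fold. Other genes named are examples chosen after their values were seen. Alternatives were normexp background correction (limma, offset 50, on the median signal, since the mean was not used here), 4 other scalings, 3 treatments of dim probes, outlier spots kept, the mean over probes, another probe, and cutoffs of 1.5-fold and 3-fold. The signal before detrending and subtraction of the median ratio of neighbouring spots (5 rows and columns on each side) were chosen after seeing the data. A test on simulated data compared the DMSO array with a copy that had added noise with an SD of 0.1. In the copy, 200 of 23309 genes had a log2 shift of 1.5, and all 200 were recovered with 0 others past 2-fold. With a shift past the cutoff and small noise, this checks only that the steps ran correctly. It does not measure the error between cultures or arrays. Software was limma 3.58.1 in R 4.3.3, and numpy 2.4.6, pandas 2.3.3 and, for plots, matplotlib 3.10.9 in Python 3.11.15. Protein sequences were not analysed here.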

Additional observations from a re-analysis of the deposited data

How the results depend on the processing

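No paired analysis was possible because each condition has a single array. IL17B was the only family gene at least 2-fold higher under each of the 15 alternatives. Its log2 ratio was 3.89 with normexp background correction, 4.24 with scaling to the median, 4.16 without scaling, 3.13 with spike-in scaling, 4.25 before detrending and 4.37 with neighbouring spots subtracted. Family genes at least 2-fold lower were 0 except with spike-in scaling, which gave 3 (IL17D, IL17RB and IL17RC), where 15801 of all 23752 genes were lower. Of the genes of the 4 related lists with the other IL17 cytokines, counted once each, 10 were at least 2-fold higher and 2 lower. Of all genes, 5.16% and 3.09% were. Counts over all genes follow in brackets, of 23752 except where given. The higher count was 3 with spike-in scaling (148), 21 at a 1.5-fold cutoff (2888) and 5 at 3-fold (417). The lower count was 0 with normexp (476), 47 with spike-in scaling (15801) and 7 with dim probes entered at their own signal (1343). It was 10 without a filter on dim probes (1907 of 41127) and 1 with genes well above background on both arrays (633 of 21002). It was also 1 with another probe (730), with neighbouring spots subtracted (764) and at 3-fold (131), and 8 at 1.5-fold (2560). A cutoff and a filter act by their construction, and spike-in scaling shifts by 1 amount every ratio of genes well above background on both arrays, while bounds taken as 0 shift less. The causes of the other changes were not tested. Of the values of the other family genes and of the single lists, 153 of 250 stayed within the SD among replicate spots (counts within 1.5 times), 97 moved and 0 past 2-fold changed sign. Dim genes are limited by signal over background, and 21 of the 38 IL17 target genes were not measured. IL17C, at 0.69 without a filter on dim probes, is dim on both arrays. No scaling shifted the median of all genes by -0.16 and spike-in scaling by -1.19.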

Other observations

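IL17REL, a gene resembling IL17RE that was outside the chosen family genes, was noticed after its values had been seen. It was well above background on the DMSO array (signal of 194) and not on the HTE array (98.8), so that it was at least 1.75-fold lower, and its log2 bound lay between -0.97 and -0.38 under the alternative settings other than spike-in scaling.

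The dimmer probe of IL6R had signals of 133 and 361. IL32 was past 2-fold with both of its probes (1.34 and 1.56). IL1RN, the antagonist of the IL1 receptor, had log2 ratios of 0.67 and 0.076 at its 2 probes.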
